A study of Takifugu alboplumbeus with 24 samples.

Results

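The step from the new moon to the waxing moon in May is the first change from a spring tide to a neap tide in a weekly series of brain samples from wild male grass puffers (Takifugu alboplumbeus). It is covered by 6 of the 24 libraries, chosen by their labelled moon phase and month, with 3 from Waxing moon May and 3 from New moon May. The fish were wild-caught at the Minamichita spawning site and untreated, and both groups are males sampled in the evening. The tissue was the lower telencephalon together with the hypothalamus and pituitary. Whether a library holds 1 animal, and whether libraries come from separate animals, is not given in the labels. A library is called a fish here. P-values set a change against the spread between libraries of a date, which may be technical and is estimated over all 8 dates. Each date was sampled once, so moon phase, tide, week and catch cannot be told apart.

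Grass puffers gather to spawn on beaches around new and full moons, when the tidal range is wide, and the waxing and waning moons between bring a narrow range. Reproduction in fish is driven from the hypothalamus by gonadotropin-releasing hormone, which acts on pituitary cells that make luteinizing and follicle-stimulating hormone. The same piece of brain holds clock, light and temperature responsive genes and the cells that make growth hormone, prolactin, thyrotropin and pro-opiomelanocortin.

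Levels are FPKM, fragments per kilobase of transcript scaled to the mapped fragments of a library. The FPKM of a library, summed over genes and given in kilo-FPKM, came to 519, 480 and 504 in Waxing moon May fish 1 to 3 and to 513, 488 and 496 in New moon May fish 1 to 3. Fish 2 of Waxing moon May stood apart from the others. Its correlation with each of the other 5 May libraries, over genes on the log2 scale, was 0.954 to 0.964, against 0.967 to 0.979 among those 5. Genes of photoreceptors and the pineal organ set apart another pair of fish, 1 on each side. Rhodopsin (rho), the light receptor of rod cells, had 0.15, 0.06 and 81.4 FPKM in Waxing moon May and 69.4, 0.12 and 0.03 FPKM in New moon May. Summed over 15 photoreceptor and pineal markers, Waxing moon May fish 3 held 202 FPKM and New moon May fish 1 held 191 FPKM, and the other 4 fish held 20.2 to 27.6 FPKM. Neuron markers (23 genes) summed to 3522, 3817 and 3315 FPKM in Waxing moon May and to 3332, 3589 and 3710 FPKM in New moon May, with overlap.

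Pituitary hormone transcripts were lower in Waxing moon May than in New moon May, and most of that difference came from fish 2 of Waxing moon May. The pituitary score, the mean log2(FPKM + 1) of 9 hormone genes, was 10.2, 4.42 and 9.85 in Waxing moon May fish 1 to 3. In New moon May fish 1 to 3 it was 10.7, 10.9 and 10.2. It averaged 8.14 ± 3.23 in Waxing moon May and 10.6 ± 0.41 in New moon May (SD, n = 3 each), a difference of -2.46, or -0.60 without fish 2. Without the gonadotropin genes the score was 9.08, 3.95 and 8.93 in Waxing moon May and 9.54, 9.95 and 9.29 in New moon May. Waxing moon May fish 1 and 3 lay under the lowest New moon May fish in both scores, by a small margin for fish 1 in the first. In bulk tissue, fewer cells of a type and less RNA per cell cannot be told apart.

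The gonadotropins have a shared alpha subunit, cga, and a beta subunit each for luteinizing hormone (lhb) and follicle-stimulating hormone (fshb). Cga had 7853, 80.7 and 5120 FPKM in Waxing moon May fish 1 to 3 and 16122, 16403 and 8038 FPKM in New moon May fish 1 to 3. All 3 Waxing moon May fish lay below all 3 New moon May fish. The change was -3.11 (SE 1.04, limma adjusted p = 0.247), and -1.02 without fish 2 (SE 0.48, limma adjusted p = 0.497). Lhb had 6327, 53.4 and 4190 FPKM in Waxing moon May and 8370, 7695 and 3436 FPKM in New moon May. The groups overlapped, since New moon May fish 3 was lower than Waxing moon May fish 1 and 3. Its change of -2.42 (SE 1.23) became -0.23 (SE 0.83) without fish 2. Fshb had 2583, 14.3 and 1665 FPKM in Waxing moon May and 4630, 3864 and 2004 FPKM in New moon May, a change of -3.03 (SE 1.46), and of -0.67 (SE 1.14) without fish 2. None of the 3 subunits passed the threshold of an adjusted p under 0.05 in either fit.

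The other hormones showed the same low fish. Pomc (LOC101064982), the precursor of adrenocorticotropin and melanocyte-stimulating hormone, had 14181, 300.3 and 10464 FPKM in Waxing moon May and 13663, 21404 and 17645 FPKM in New moon May. Gh1, growth hormone, had 842, 18.1 and 834 FPKM in Waxing moon May and 1483, 1491 and 574 FPKM in New moon May. Prolactin, prl, had 304, 5.56 and 587 FPKM in Waxing moon May and 642, 586 and 378 FPKM in New moon May. For these 3 genes the groups overlapped, with fish 2 as the lowest of the 6. Tshb, the beta subunit of thyrotropin, had 73.1, 1.08 and 57.0 FPKM in Waxing moon May and 121, 287 and 135 FPKM in New moon May, with no overlap. Its change was -3.02 (SE 0.88, limma adjusted p = 0.204), and -1.36 without fish 2 (SE 0.51, limma adjusted p = 0.442). The second pro-opiomelanocortin copy (LOC101072941) had 52.6, 9.87 and 45.2 FPKM in Waxing moon May and 68.2, 120 and 78.5 FPKM in New moon May, also without overlap. Somatolactin (smtla), a hormone of the fish pituitary, had 1747, 15.2 and 982 FPKM in Waxing moon May and 1557, 1410 and 1434 FPKM in New moon May. All 9 tested hormone genes were lower in Waxing moon May, with a median change of -2.31, or -0.50 without fish 2. Over all 17058 tested genes the median was 0.03 in both fits.

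**Figure D1:**
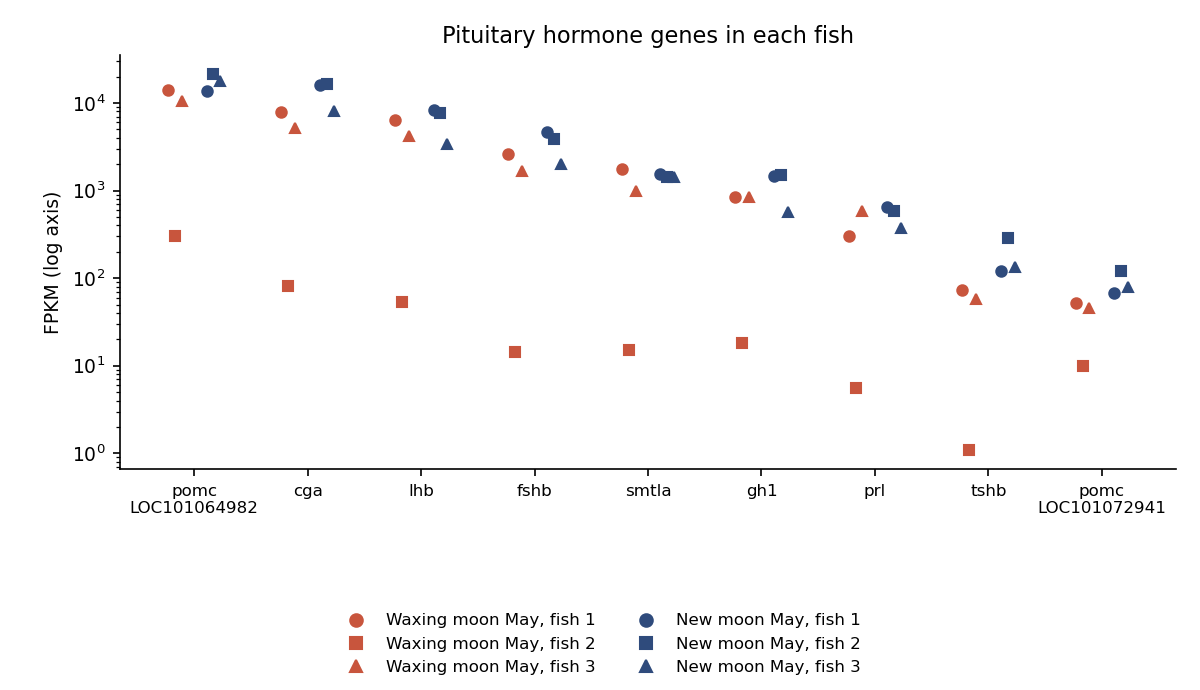
FPKM (log axis) of the 9 tested pituitary hormone genes in each of the 3 Waxing moon May fish (red, left) and the 3 New moon May fish (blue, right), with a marker shape for each fish. Waxing moon May fish 2 (red square) is the lowest of the 6 for every gene, at 300.3 FPKM for the main pomc copy and 1.08 FPKM for tshb.

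Across the brain piece, 3 of 17058 tested genes passed the threshold between Waxing moon May and New moon May, 0.0176% of those tested, with 2 higher (0.0117%) and 1 lower (0.00586%). Hes4, a transcriptional repressor of the Notch pathway, had 14.8, 15.2 and 16.8 FPKM in Waxing moon May and 8.23, 7.74 and 7.53 FPKM in New moon May. The groups did not overlap and fish 2 was in the middle of its group. Hes4 averaged 15.6 ± 1.03 FPKM in Waxing moon May and 7.83 ± 0.359 FPKM in New moon May (SD, n = 3 each), and rose by 0.91 on the log2 scale (SE 0.14, limma adjusted p = 0.0309). An adenosine kinase-like gene (LOC101068683), whose enzyme turns adenosine into AMP, had 12.1, 11.9 and 11.8 FPKM in Waxing moon May and 6.90, 6.59 and 7.87 FPKM in New moon May. It rose by 0.67 (SE 0.11, limma adjusted p = 0.0309), with no overlap. The gene that fell was bhlhe40-like (LOC101063749), a clock repressor and immediate responder to many signals, with 26.1, 18.3 and 20.2 FPKM in Waxing moon May and 51.2, 39.9 and 38.4 FPKM in New moon May. Its change was -0.98 (SE 0.16, limma adjusted p = 0.0309), and its groups did not overlap.

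Without Waxing moon May fish 2, no gene passed (0.0% of those tested, limma, smallest adjusted p = 0.170), while 1698 genes had an unadjusted p under 0.05. The 3 genes kept their direction, at 0.93 for hes4, 0.67 for the adenosine kinase-like gene and -0.87 for bhlhe40-like. The count also depended on other libraries. It was 0 without New moon May fish 2 or fish 3, and 1, a different gene, without Waxing moon May fish 3. It was 3 without Waxing moon May fish 1 and 8 without New moon May fish 1, and each of these counts held 1 of the 3 genes. No gene passed with the pituitary score without gonadotropin genes as a covariate, or in a fit of the 6 May libraries alone. Scaling the libraries to a common sum gave 2 genes higher and 3 lower, median-ratio scaling 2 higher and 4 lower, and quantile normalization 3 higher and 4 lower. Without any adjustment, 2131 genes had a p under 0.05 in the fit of all fish, 1395 of them higher and 736 lower.

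Genes with p-values next to these did not pass. Among those higher in Waxing moon May, brk1, a subunit of the WAVE actin complex, had 251, 242 and 245 FPKM in Waxing moon May and 208, 180 and 188 FPKM in New moon May (log2 change 0.36, limma adjusted p = 0.0513). Lpar6, a receptor for lysophosphatidic acid, had 8.70, 9.65 and 10.2 FPKM in Waxing moon May and 6.81, 5.09 and 5.45 FPKM in New moon May (0.64, limma adjusted p = 0.0516). Both had groups that did not overlap.

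Among those lower in Waxing moon May, klf3, a Kruppel-like transcriptional repressor, had 12.2, 10.4 and 10.5 FPKM in Waxing moon May and 18.4, 14.99 and 14.4 FPKM in New moon May (log2 change -0.49, limma adjusted p = 0.0513). Retreg1, a receptor for autophagy of the endoplasmic reticulum, had 16.7, 16.6 and 18.1 FPKM in Waxing moon May and 28.9, 28.3 and 27.4 FPKM in New moon May (-0.69, limma adjusted p = 0.0516). The RNA-degrading enzyme ZC3H12C (LOC101062976) had 9.13, 5.32 and 7.91 FPKM in Waxing moon May and 16.2, 15.8 and 12.7 FPKM in New moon May (-0.93, limma adjusted p = 0.0516). These groups did not overlap either. Cpe, carboxypeptidase E, which trims peptide hormones to their active form, had 388, 296 and 374 FPKM in Waxing moon May and 602, 531 and 479 FPKM in New moon May (-0.61, limma adjusted p = 0.0884). Fish 2 was the lowest of the 6 for klf3, retreg1, ZC3H12C and cpe, as for bhlhe40-like, by a small margin for klf3 and retreg1. Without it the changes were -0.46 for klf3, -0.67 for retreg1, -0.74 for ZC3H12C and -0.49 for cpe.

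**Figure D2:**
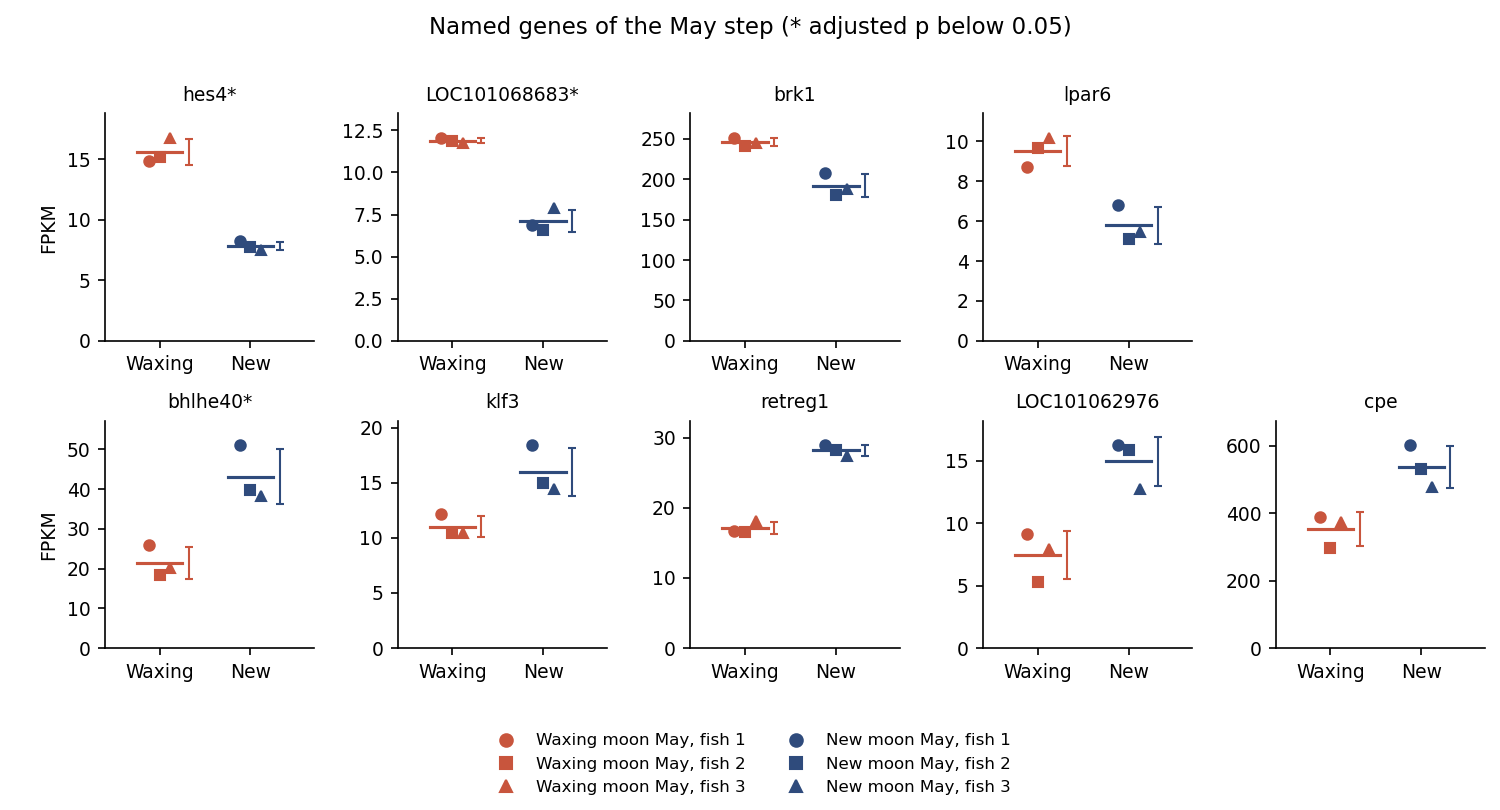
FPKM in each fish of 9 named genes with small p-values at the May step, 4 higher in Waxing moon May in the top row and 5 lower in the bottom row, with Waxing moon May (red) left of New moon May (blue), bars for means and whiskers for SD (n = 3). Groups do not overlap in any of the 9 panels, and hes4, LOC101068683 and bhlhe40-like, marked with a star, passed with an adjusted p of 0.0309.

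Leaving out fish 2 changed the ranking of p-values below the first genes, and none of these passed. A TATDN3-like nuclease gene (LOC115247648) had 2.24, 1.62 and 2.51 FPKM in Waxing moon May and 0.77, 1.03 and 0.93 FPKM in New moon May, a change of 0.70, or 0.82 without fish 2 (limma adjusted p = 0.170). The magnesium transporter slc41a1 had 3.73, 4.55 and 4.16 FPKM in Waxing moon May and 6.10, 5.66 and 5.73 FPKM in New moon May, a change of -0.41, or -0.47 without fish 2. A SOX-4 gene (LOC101072929), a transcription factor of developing neurons, had 12.1, 14.1 and 9.49 FPKM in Waxing moon May and 15.9, 15.8 and 15.5 FPKM in New moon May, a change of -0.39, or -0.51 without fish 2. The proteasome ATPase gene 26S proteasome regulatory subunit 8 (LOC101062380) had 55.7, 45.2 and 88.3 FPKM in Waxing moon May and 47.2, 38.8 and 43.2 FPKM in New moon May. Its level is uncertain, since a second copy (LOC115250256) had the same 45.2 FPKM in Waxing moon May fish 2 and the same values in all 3 New moon May fish, but 33.2 and 2.01 FPKM in Waxing moon May fish 1 and 3.

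Gene lists are given by how many tested members were higher or lower and by their median log2 change, beside 9602 of all 17058 tested genes higher and a median of 0.03. Groups did not overlap for 11.3% of all genes in the higher direction and 5.97% in the lower direction, and without fish 2 for 16.6% and 10.3% (26.9% in either direction). Bhlhe40-like was the 1 list member that passed at the May step, and every other member named next missed the threshold there.

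Clock genes went both ways. Of 36 tested, 17 were higher and 19 lower (median -0.02), with no overlap for 6 higher and 7 lower. ROR receptors activate clock genes. A ROR-beta-like copy (LOC101077131) had 3.90, 2.67 and 2.85 FPKM in Waxing moon May and 6.48, 5.13 and 5.33 FPKM in New moon May (log2 change -0.69, limma adjusted p = 0.0935), and another (LOC101076680) had a change of -0.46. The opposing repressor nr1d1-like (LOC101078749, a REV-ERB receptor) had 9.32, 13.3 and 8.57 FPKM in Waxing moon May and 4.87, 6.43 and 6.39 FPKM in New moon May (0.71, limma adjusted p = 0.199). None of these groups overlapped. Bhlhe41, the close relative of bhlhe40, had 11.4, 14.3 and 10.8 FPKM in Waxing moon May and 9.03, 10.4 and 10.7 FPKM in New moon May, a change of 0.24 (SE 0.15, limma adjusted p = 0.509), with groups that nearly touched. The light-induced per2-like gene (LOC115246449) had 6.00, 5.85 and 7.79 FPKM in Waxing moon May and 7.86, 8.73 and 8.94 FPKM in New moon May, a change of -0.34.

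In the hypothalamic reproductive axis, 7 of 19 tested genes were higher and 12 lower (median -0.04, or 0.05 without fish 2). Gnrh1, the releasing hormone for gonadotropins, had 28.2, 12.1 and 17.4 FPKM in Waxing moon May and 33.8, 3.46 and 29.5 FPKM in New moon May. The groups overlapped fully, with New moon May fish 2 lowest of all. Its change was 0.19 (SE 0.84, limma adjusted p = 0.950), and 0.47 without Waxing moon May fish 2. The change had no steady sign, at -0.77 to 0.72 when 1 library was left out. An estrogen receptor beta-like gene (LOC101075495) had 7.91, 3.20 and 7.26 FPKM in Waxing moon May and 17.1, 17.1 and 10.4 FPKM in New moon May, without overlap. Its change was -1.20 (SE 0.30, limma adjusted p = 0.178), and -0.86 without fish 2. Estrogen receptor alpha, esr1, had 28.3, 5.60 and 33.4 FPKM in Waxing moon May and 32.3, 31.9 and 19.7 FPKM in New moon May, with fish 2 lowest and the rest mixed.

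In a list of pituitary transcription factors, receptors and secretory proteins, without the hormones, 23 of 31 tested genes were lower. The median was -0.18, or -0.08 without fish 2, and 7 of the 23 had no overlap. The list summed to 527, 484 and 558 FPKM in Waxing moon May and to 611, 726 and 628 FPKM in New moon May. Hormone genes summed to 33964, 499 and 23945 FPKM in Waxing moon May, so the list is no measure of pituitary cells alone. Pou1f1, the factor of growth hormone, prolactin and thyrotropin cells, had 9.95, 0.70 and 17.4 FPKM in Waxing moon May and 15.8, 24.1 and 21.9 FPKM in New moon May. Its log2 change was -1.61, or -0.59 without fish 2. The hormone-processing protease pcsk1 had 37.5, 28.3 and 34.0 FPKM in Waxing moon May and 41.8, 59.7 and 51.9 FPKM in New moon May (log2 change -0.60, limma adjusted p = 0.203). Secretogranin 2 (scg2, LOC101068421), a protein of hormone granules, had 155, 171 and 179 FPKM in Waxing moon May and 207, 260 and 254 FPKM in New moon May (-0.51). Both were lower without overlap, and fish 2 was not the lowest for scg2.

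Neuropeptide genes, a list that also holds pomc, split 15 higher and 24 lower of 39 tested (median -0.17 with and without fish 2). With fish 2 and a further library left out, the median ran from -0.15 to 0.03, so its sign was not steady. Neuropeptide Y (npy, LOC101076657), a feeding peptide, had 51.8, 68.7 and 29.5 FPKM in Waxing moon May and 95.1, 152 and 125 FPKM in New moon May. All 3 Waxing moon May fish were below all 3 New moon May fish (log2 change -1.35, SE 0.43, limma adjusted p = 0.231), and the change was -1.62 without fish 2. Vip, a peptide of neurons and the gut, had 3.22, 4.63 and 3.24 FPKM in Waxing moon May and 2.10, 1.85 and 1.92 FPKM in New moon May (0.66, limma adjusted p = 0.204). Of transmitter enzymes and transporters, 16 of 33 tested were higher (median -0.04). Dbh, which makes noradrenaline, had 4.55, 3.47 and 3.65 FPKM in Waxing moon May and 5.37, 7.50 and 8.27 FPKM in New moon May (-0.71). Of 56 glutamate and GABA receptor genes, 34 were lower (median -0.07), and 45 were lower without fish 2 (median -0.12), among them grm2-like (LOC101065312, log2 change -0.50).

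Immediate early genes, which respond within minutes to cell activity, were lower for 28 of 35 tested (median -0.16, or -0.19 without fish 2), and 6 of the 28 had no overlap. Dusp6, a phosphatase that limits ERK signalling, had 30.6, 24.9 and 25.6 FPKM in Waxing moon May and 37.4, 34.4 and 33.7 FPKM in New moon May (log2 change -0.37, limma adjusted p = 0.165). Gadd45b (LOC101080011) had 2.62, 2.58 and 3.16 FPKM in Waxing moon May and 5.03, 5.14 and 5.23 FPKM in New moon May (-0.70). Egr1-like (LOC101064926) had 11.8, 8.44 and 9.53 FPKM in Waxing moon May and 19.4, 15.3 and 13.4 FPKM in New moon May (-0.64), while egr1 itself overlapped (-0.09). C/EBP factors were lower for 4 of 5 (median -0.19). Cebpd had 30.4, 21.8 and 36.7 FPKM in Waxing moon May and 40.02, 30.8 and 48.1 FPKM in New moon May, with overlap, a change of -0.42 (SE 0.32, limma adjusted p = 0.611), or -0.22 without fish 2.

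Prostaglandin genes were higher for 15 of 23 tested (median 0.06), or for 14 of 23 without fish 2 (median 0.11). A prostaglandin E2 receptor gene, ptger4-like (LOC101070091), had 1.57, 1.10 and 1.33 FPKM in Waxing moon May and 3.61, 2.44 and 2.70 FPKM in New moon May, without overlap (log2 change -0.74, limma adjusted p = 0.143). A second, ptger2-like (LOC101075152), had 1.72, 0.15 and 0.91 FPKM in Waxing moon May and 1.43, 1.64 and 2.19 FPKM in New moon May (-0.59, or -0.26 without fish 2). The prostaglandin-degrading reductase ptgr1 had 41.8, 43.6 and 38.2 FPKM in Waxing moon May and 36.2, 29.4 and 31.5 FPKM in New moon May (0.34).

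Genes of the protein synthesis and energy machinery were higher in Waxing moon May by small amounts. Of the 82 cytosolic ribosomal protein genes, 75 were higher (median 0.22, or 0.26 without fish 2), and 47 were higher without overlap. Their FPKM summed to 61719, 56554 and 60313 in Waxing moon May and to 55315, 45933 and 51001 in New moon May. Rpl7 had 797, 709 and 775 FPKM in Waxing moon May and 626, 519 and 635 FPKM in New moon May (log2 change 0.36, SE 0.11, limma adjusted p = 0.204). Rpl22 had 886, 837 and 882 FPKM in Waxing moon May and 712, 510 and 646 FPKM in New moon May (0.49). For both genes all Waxing moon May fish were above all New moon May fish. Of 93 tested oxidative phosphorylation genes, 73 were higher (median 0.14, the same without fish 2), 33 of them without overlap. Subunit 9 of the cytochrome b-c1 complex (LOC101067100) had 307, 326 and 283 FPKM in Waxing moon May and 228, 198 and 224 FPKM in New moon May (0.50, limma adjusted p = 0.119), and ndufb1 of complex I had a change of 0.57. Under the 3 other scalings the ribosomal median was 0.08 to 0.21 and the oxidative phosphorylation median 0.09 to 0.13.

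Chaperones and interferon response genes were also mostly higher. Of 24 tested heat shock and cold response genes, 21 were higher (median 0.19, or 0.15 without fish 2), 9 of them without overlap. The mitochondrial co-chaperone hspe1 had 103, 103 and 97.0 FPKM in Waxing moon May and 79.2, 76.8 and 71.3 FPKM in New moon May (log2 change 0.41, limma adjusted p = 0.0935). Hsp90ab1 (LOC101076976) had 538, 681 and 550 FPKM in Waxing moon May and 478, 436 and 486 FPKM in New moon May (0.33). For both, all Waxing moon May fish were above all New moon May fish. Of 39 interferon response genes, 33 were higher (median 0.23, or 0.18 without fish 2), but 1 was higher without overlap. Samd9-like (LOC105419033) had 28.2, 29.8 and 39.2 FPKM in Waxing moon May and 28.5, 11.6 and 10.4 FPKM in New moon May, where fish 1 was at the level of the lowest Waxing moon May fish.

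Most meningeal, pericyte and matrix genes were higher in Waxing moon May, as were the summed markers of vessel and meningeal cells. Cldn5, a tight junction protein of the blood-brain barrier, had 42.6, 47.0 and 45.9 FPKM in Waxing moon May and 37.7, 25.9 and 24.5 FPKM in New moon May (log2 change 0.63, SE 0.15, limma adjusted p = 0.165). Brain endothelium markers (25 genes) summed to 409, 415 and 411 FPKM in Waxing moon May and to 398, 368 and 359 FPKM in New moon May, though 12 of 23 tested were higher (median 0.05). Meningeal and fibroblast markers (19 genes) summed to 315, 295 and 246 FPKM in Waxing moon May and to 226, 195 and 206 FPKM in New moon May, and 14 of 16 tested were higher (median 0.36). Both sums were higher in every Waxing moon May fish, and none of these markers was at 0 in all 6 fish. Of 40 tested collagen and matrix genes, 28 were higher (median 0.15, or 0.21 without fish 2), among them col3a1-like (LOC105417179) with 86.4, 94.2 and 82.3 FPKM in Waxing moon May and 67.1, 59.3 and 46.9 FPKM in New moon May (0.61). Pericyte and smooth muscle markers (17 genes) summed to 454, 462 and 500.3 FPKM in Waxing moon May and to 453, 367 and 377 FPKM in New moon May, and 13 of 15 tested were higher (median 0.24). Forebrain regional factors were higher for 31 of 46 tested (median 0.13, or 0.05 without fish 2). Zic2 had 58.5, 52.5 and 51.9 FPKM in Waxing moon May and 37.5, 24.7 and 33.9 FPKM in New moon May (0.76, limma adjusted p = 0.106), without overlap. Cerebellum and hindbrain markers (15 genes) summed to 1061, 1065 and 875 FPKM in Waxing moon May and to 809, 735 and 825 FPKM in New moon May, while 5 of 10 tested were higher (median 0.01), or 3 of 10 without fish 2 (median -0.15). Skeletal muscle markers (15 genes) also summed higher, at 219, 204 and 232 FPKM in Waxing moon May against 159, 177 and 193 FPKM in New moon May. Of 15 tested myelin cell markers 9 were lower (median -0.22, or -0.31 without fish 2), and their sums overlapped. Without fish 2 the median was 0.06 for endothelium, 0.35 for meningeal and 0.25 for pericyte markers. The part of cell makeup or dissection in these gene groups was not tested.

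Cholesterol synthesis genes were lower for 24 of 29 tested (median -0.14, or -0.17 without fish 2), such as nsdhl with 5.75, 5.63 and 4.70 FPKM in Waxing moon May and 6.03, 7.51 and 11.8 FPKM in New moon May (log2 change -0.53, limma adjusted p = 0.247). Hypoxia and glycolysis genes were lower for 19 of 32 (median -0.05), or for 22 of 32 without fish 2 (median -0.12). The glucose transporter slc2a1-like (LOC101063282) had 3.22, 7.78 and 5.01 FPKM in Waxing moon May and 12.3, 9.37 and 14.3 FPKM in New moon May (-1.08, limma adjusted p = 0.204), without overlap. A more abundant slc2a1-like copy (LOC101073552) had 79.0, 86.3 and 97.6 FPKM in Waxing moon May and 79.7, 64.4 and 68.8 FPKM in New moon May, with overlap (0.30). In the thyroid axis 10 of 21 were higher (median -0.01), and the hormone-inactivating deiodinase dio3 had 8.21, 5.63 and 6.57 FPKM in Waxing moon May and 9.22, 9.22 and 10.01 FPKM in New moon May (-0.44). The stress axis had 13 of 23 higher (median 0.03, or 0.06 without fish 2), and the corticotropin-releasing factor binding protein crhbp (LOC101075851) had 54.9, 5.08 and 48.0 FPKM in Waxing moon May and 52.1, 82.0 and 60.2 FPKM in New moon May, with fish 2 low as for the pituitary hormones. Endoplasmic reticulum folding genes had a median of 0.04 (26 of 45 higher), or 0.14 without fish 2 (31 of 45). Inflammation genes had a median of 0.03 (10 of 17 higher), or 0.16 without fish 2 (12 of 17). The cell cycle had a median of 0.12 (13 of 17 higher), or 0.11 without fish 2 (11 of 17). Opsins and melatonin had a median of 0.10 (10 of 12 higher), or 0.14 without fish 2 (9 of 12). The opsin and melatonin median ran from -0.22 to 0.18 when 1 library was left out. The 4 tested egg coat and yolk genes, of 16 matched, were all lower (median -1.74, or -0.94 without fish 2). Vitellogenin (LOC101062271), an egg yolk precursor, had 7.03, 0.06 and 4.10 FPKM in Waxing moon May and 29.0, 16.7 and 3.89 FPKM in New moon May, with overlap.

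**Figure D3:**
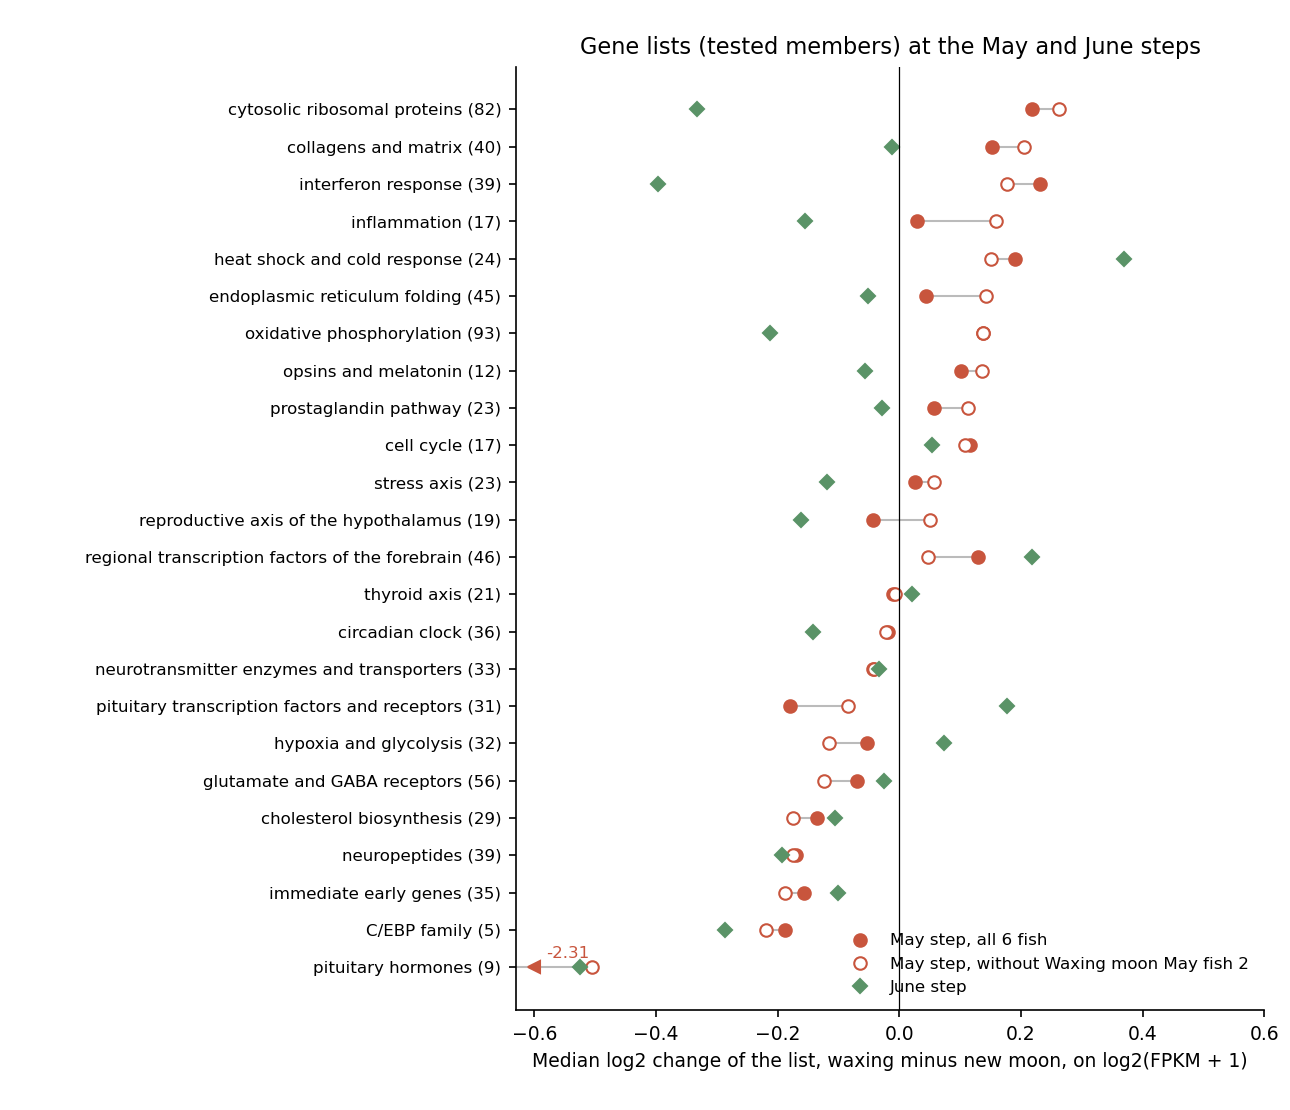
Median log2 change (waxing minus new moon, on log2(FPKM + 1)) of 24 gene lists, with the number of tested members in brackets, at the May step with all 6 fish (filled red), at the May step without Waxing moon May fish 2 (open red) and at the June step (green). The May median of pituitary hormones, -2.31, lies off the axis and is drawn as an arrow, and the egg coat and yolk list (-1.74) is left out. Cytosolic ribosomal proteins stand at 0.22 in May and at -0.33 in June.

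The same step was sampled again a lunar cycle later, from New moon June to Waxing moon June, with 3 other fish a side and none of the May libraries. At the June step 1213 genes passed, 7.11% of those tested, with 837 higher (4.91%) and 376 lower (2.2%) in Waxing moon June. The split depended on scaling, with 2559 higher and 234 lower after scaling to a common sum, 436 and 561 after median-ratio scaling, and 560 and 410 after quantile normalization. Scaling to a common sum moved the June median of all genes to 0.16, against 0.05 as reported. Each of the 6 June fish lowered the count when left out, to 410 to 794 genes.

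Genes that passed at the June step had small median changes in May. They were chosen by their June values, which enlarges their June medians and not their May medians. Of the 837 genes higher at the June step, 565 were also higher in Waxing moon May, with a median May change of 0.06 against a median June change of 0.43. Without Waxing moon May fish 2, 535 were higher, with a median May change of 0.04. Of the 837, 106 had an unadjusted limma p under 0.05 in May in the same direction and 9 in the opposite one. Of the 376 genes lower at the June step, 192 were lower and 184 higher in Waxing moon May, with medians of -0.00195 in May and -0.50 in June. Without Waxing moon May fish 2, 186 were lower and 190 higher, with a May median of 0.00295. Of the 376, 52 had such a p in the same direction and 33 in the opposite one. Among all 17058 tested genes, 9602 were higher and 7456 lower in Waxing moon May, and 1395 and 736 of them had such a p. Both steps were tested with the same estimate of each gene's spread, taken from all 24 libraries. Choosing genes by their June p therefore also favours small May p-values, and these counts cannot be compared directly with those over all genes. Across the 17058 genes, which are not independent of each other, the May and June changes had a Pearson correlation of 0.08, or -0.01 without fish 2. Of the 1213 genes, only hes4 passed at the May step, with a June change of 0.48 (limma adjusted p = 0.0480). Lpar6 (0.66), klf3 (-0.36), cpe (-0.45) and the TATDN3-like gene (0.82), which missed the threshold in May, passed in June in the same direction. Cldn5 (0.78) and cebpd (-1.14), members of lists chosen with earlier results of these data known, did so too. Lpar6, klf3, cpe and the TATDN3-like gene were named for small May p-values. With the shared estimate of spread, that choice also favours small June p-values, so these genes are not independent repeats. The adenosine kinase-like gene, bhlhe40-like, brk1, retreg1 and ZC3H12C did not pass in June. Neither did SOX-4, slc41a1 and the 26S proteasome gene, which had the opposite sign there.

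A test of the difference between the steps found 11 genes, 0.0645% of those tested, 7 with a higher (0.041%) and 4 with a lower (0.0234%) change in May than in June. Without Waxing moon May fish 2 it found 5 genes (0.0293%), 2 of them lower (0.0117%), and 4 of the 5 were among the 11. The fifth was a complement c1qa-like gene of microglia, outside the rule for named genes and named after its values were seen, with a difference of 2.08 without fish 2 (limma adjusted p = 0.0258). The count was 24 without Waxing moon May fish 3, 39 without New moon May fish 1 and 1 without New moon May fish 2. It was 4 and 1 without Waxing moon June fish 2 and 3, and 5 and 4 without New moon June fish 2 and 3. Hsp90aa1 (LOC101068853), an inducible chaperone, had 131, 200 and 200 FPKM in Waxing moon May and 120, 161 and 111 FPKM in New moon May, with overlap. In June it had 559, 460 and 548 FPKM in Waxing moon June and 131, 149 and 162 FPKM in New moon June, with no overlap. Its log2 change was 0.43 in May and 1.82 in June, a difference of -1.39 (limma adjusted p = 0.0178). Cirbp, the cold-inducible RNA-binding protein, had 843, 822 and 783 FPKM in Waxing moon May and 941, 784 and 955 FPKM in New moon May. In June it had 449, 379 and 372 FPKM in Waxing moon June and 829, 818 and 843 FPKM in New moon June. The changes were -0.13 in May and -1.06 in June (difference 0.93, limma adjusted p = 0.0264, or 0.0656 without Waxing moon May fish 2). An SRSF5-like splicing factor gene (LOC101079760) had 86.2, 74.6 and 66.5 FPKM in Waxing moon May and 88.6, 62.8 and 82.6 FPKM in New moon May, and 26.6, 31.5 and 29.7 FPKM in Waxing moon June and 79.8, 99.2 and 87.2 FPKM in New moon June (difference 1.53, limma adjusted p = 0.000995). For cirbp and the SRSF5-like gene the May groups overlapped and the June groups did not. The transmembrane protein 254-like gene (LOC115246426) had opposite signs, 0.95 in May and -0.63 in June (difference 1.58, limma adjusted p = 0.0184, or 0.0637 without Waxing moon May fish 2), with 15.5, 19.3 and 16.6 FPKM in Waxing moon May and 11.5, 7.20 and 6.91 FPKM in New moon May.

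**Figure D4:**
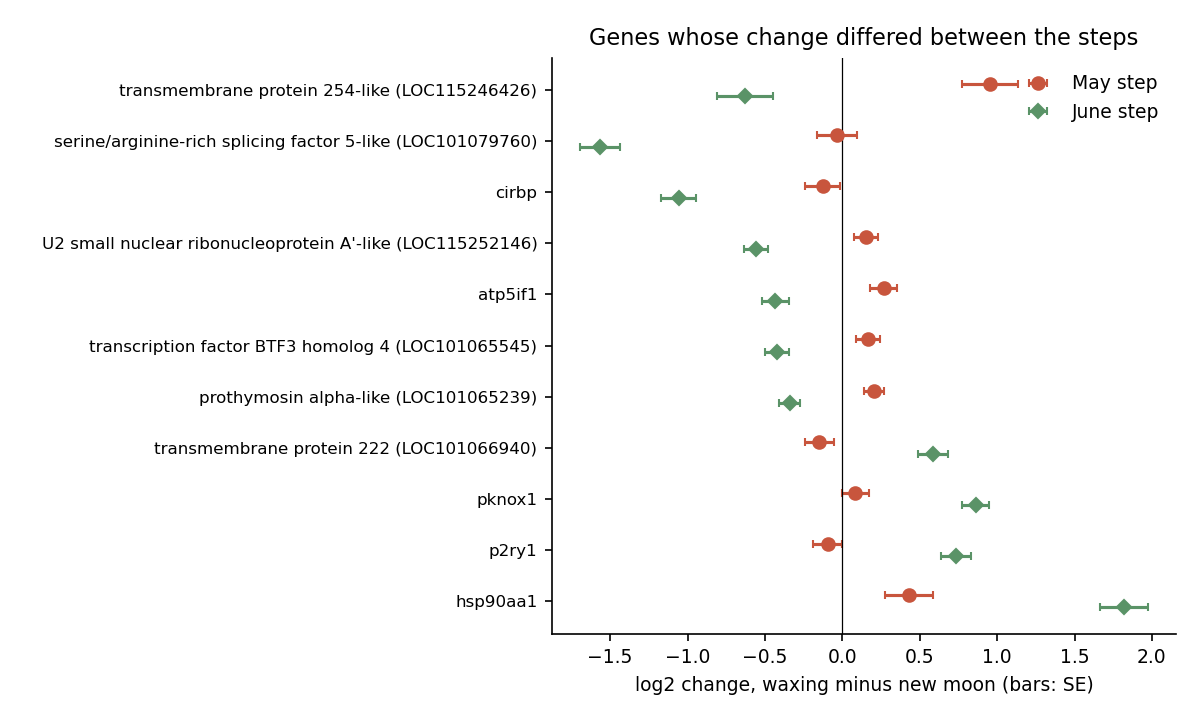
Log2 change (waxing minus new moon, bars are SE) of the 11 genes whose change differed between the May step (red circles) and the June step (green diamonds) at an adjusted p under 0.05. Hsp90aa1 stands at 0.43 in May and 1.82 in June, and cirbp at -0.13 in May and -1.06 in June.

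Gene lists whose medians had opposite signs and lay beyond 0.1 at both steps were the ribosomal proteins, oxidative phosphorylation, the interferon response and the pituitary transcription factors and receptors. Of the 82 ribosomal protein genes, 79 had a higher change in May than in June (median difference 0.53), and 60 of them had an unadjusted p under 0.05 for the difference, with none past the adjusted threshold. Of all 17058 genes, 1362 had such a p in that direction. The ribosomal median was 0.22 in May and -0.33 in June. It stayed above 0 in May and below 0 in June under all 3 other scalings, with a June range of -0.39 to -0.08. With quantile normalization it was 0.08 in May and -0.08 in June, not beyond 0.1, and the median difference was 0.16 (66 of 82 with a higher change in May). Oxidative phosphorylation genes had medians of 0.14 in May and -0.21 in June, and 79 of 93 had a higher change in May. With a common sum their June median was -0.09, and 67 of 93 had a higher change in May. With quantile normalization their May median was 0.09, and 68 of 93 had a higher change in May. Neither of these 2 medians lay beyond 0.1. Interferon response genes had medians of 0.23 in May and -0.40 in June, and 38 of 39 had a higher change in May. Pituitary transcription factors and receptors had medians of -0.18 in May and 0.18 in June, and 28 of 31 had a lower change in May. The 9 tested hormone genes did not follow them and were all lower at both steps, with medians of -2.31 in May and -0.52 in June. The count of 28 of 31 includes Waxing moon May fish 2. Without that fish the May median was -0.50 for the hormones. It was -0.08, no longer beyond 0.1, for the transcription factors and receptors, with 13 higher and 18 lower in May. Inflammation genes then lay beyond 0.1 at both steps, with medians of 0.16 in May and -0.16 in June. Erythrocyte markers had the same signs as the first 3 lists, with medians over 6 tested genes of 0.25 in May and -0.92 in June and a higher change in May for all 6. In May their sums overlapped, at 3130, 3486 and 3854 FPKM in Waxing moon May and 3431, 2243 and 4129 FPKM in New moon May, and their part in these medians was not tested. Skeletal muscle markers also had these signs, with medians over 7 tested genes of 0.29 in May and -0.14 in June. A higher change in May held for 6 of the 7, and the part of these markers was not tested either. Over all genes 7830 of 17058 had a higher change in May. Of 24 tested heat shock and cold response genes, 21 were higher at each step, with medians of 0.19 in May and 0.37 in June. In June 11 of the 24 passed in the higher direction and 1, cirbp, in the lower direction. Among all tested genes 4.91% passed as higher and 2.2% as lower in June. Of the 24, 17 had a lower change in May than in June. Gnrh1 had a log2 change of 0.19 in May and of -2.21 in June, a difference of 2.41 that missed the threshold (limma adjusted p = 0.302). Its May change took either sign when 1 library was left out, from -0.77 to 0.72.

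**Figure D5:**
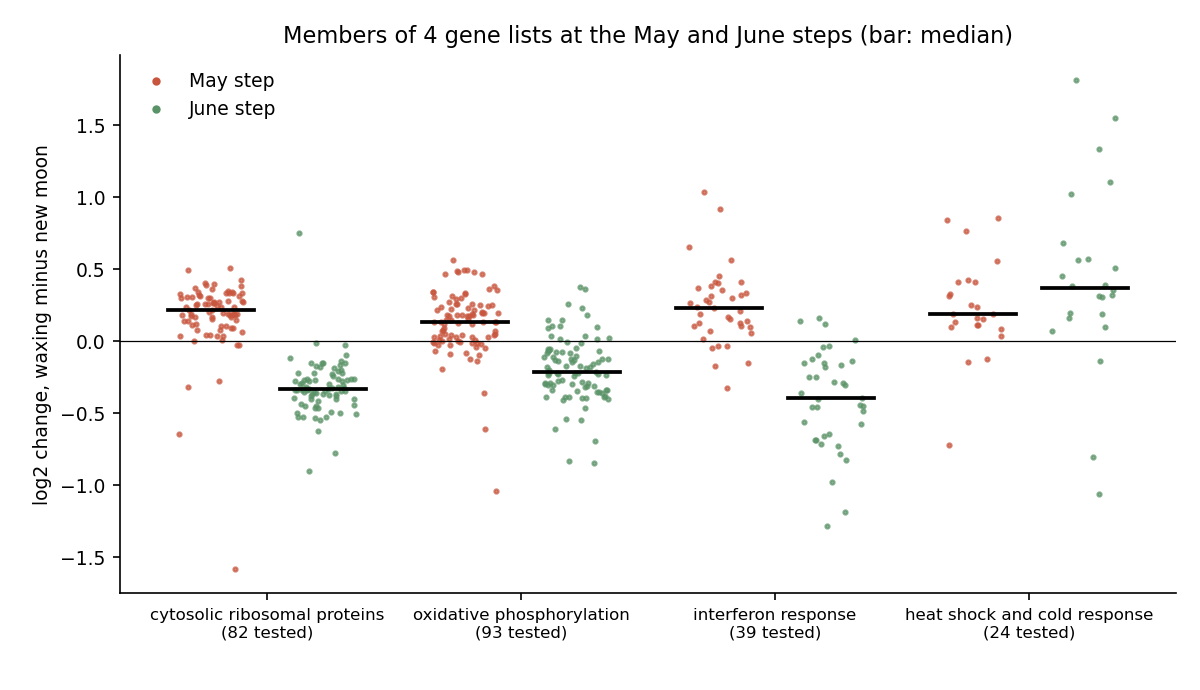
Log2 change of each tested member of 4 gene lists at the May step (red) and the June step (green), with black bars for medians. Ribosomal protein genes lie mostly above 0 in May (75 of 82) and below 0 in June, and heat shock and cold response genes lie mostly above 0 at both steps.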

How the data were processed

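The deposited table holds FPKM values per gene made by the authors for 24 libraries (8 dates of 3 libraries). Libraries were strand-specific and made from poly-A RNA, per the labels' protocols. Per the submitters' processing notes, HISAT2 2.0.4 and RSEM 1.2.12 were used. Of the genome, the build was not given in the sources used here. FPKM values keep no read numbers, so sequencing depth is unknown and no counting interval is given. Close gene copies share reads, so their levels are uncertain.

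Tests used log2(FPKM + 1), a scale on which changes of low genes are understated. A gene was tested where its mean over the 24 libraries reached 1 FPKM (17058 of 24935). Limma 3.58.1 in R 4.3.3 was fitted with an intensity trend to 8 date groups, with 16 residual degrees of freedom and Benjamini-Hochberg adjustment at 0.05. The contrasts were Waxing moon May minus New moon May, the same without Waxing moon May replicate 2, the June step, and the May minus the June step. With 3 against 3, an exact two-sided test cannot go below 0.1, so single values have no such test. The method was tested on simulated data in which genes varied independently and no library stood apart, so that test does not cover a library that does.

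The genes named are up to 12 increases and 12 decreases that passed without overlap (10 and 10 without replicate 2, 5 and 5 for the difference of the steps). Where fewer than 5 passed, the smallest p-values complete the 5. A fixed set of genes of the reproductive axis, pituitary, clock and barrier is always given, and up to 4 members per list by smallest p plus well-known members. The members, 25 lists of genes and 13 of cell markers were chosen with earlier results of these data known. Alternatives were other pseudocounts, filters, scalings, sets of libraries, a replicate block and a pituitary score as covariate. The alternatives for the June step, and those for the pituitary score other than leaving out the gonadotropin genes, were added after seeing the data. Some genes that the naming rule picked are not reported here.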

Additional observations from a re-analysis of the deposited data

Results flagged for a closer look

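A test of the difference between the May step and the June step found 11 genes that passed (limma, adjusted over 17058 genes). The change was higher in May than in June by 1.58 on the log2 scale for the transmembrane protein 254-like gene (LOC115246426), by 1.53 for the SRSF5-like gene (LOC101079760), by 0.93 for cirbp, by 0.71 for the U2 small nuclear ribonucleoprotein A'-like gene (LOC115252146) and by 0.70 for atp5if1. The May minus June difference was -1.39 for hsp90aa1 (LOC101068853), -0.83 for p2ry1, -0.78 for pknox1 and -0.74 for transmembrane protein 222 (LOC101066940). Without Waxing moon May fish 2, the SRSF5-like gene, pknox1, the U2 small nuclear ribonucleoprotein A'-like gene and hsp90aa1 passed, and the other 7 of the 11 genes had adjusted p-values of 0.0637 to 0.0672 (limma). Each date was sampled once, so a difference between the steps and a difference between catches cannot be told apart.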

How the results depend on the processing

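The 3 genes that passed at the May step became 6 with a pseudocount of 0.1, 11 with a minimum mean of 5 FPKM, 7 without a filter, 5 with a common sum, 6 with median-ratio scaling and 7 with quantile normalization, and each of these sets held the same 3 genes. It was 0 with only the libraries of the dates compared and 0 with the pituitary score without gonadotropin genes as a covariate, and 0 to 8 when 1 library was left out. Without Waxing moon May replicate 2, 1 gene passed with no filter in place of 0, and 0 to 11 when a further library was left out (11 without Waxing moon May replicate 1, 2 without New moon May replicate 1). The June count of 1213 became 2793 with a common sum and 410 to 794 when 1 library was left out. The 11 genes of the difference between the steps became 25 with a minimum mean of 5 FPKM, 5 with a common sum, 6 with quantile normalization, 75 with only the libraries of the dates compared, 5 with the covariate and 1 to 39 when 1 library was left out. The pituitary score difference of -2.46 lay between -3.47 and -0.60 when 1 library was left out. For these changes of count the cause was not tested. With the replicate number as a block, 4 genes passed at the May step, 0 without replicate 2, 1177 at the June step and 15 in the difference. The deviations of same-numbered May fish correlated at 0.03, 0.11 and -0.17, and not every fish correlated best with its own number. These values give no sign that the numbers pair the samples, and with 3 fish a side they cannot exclude it. No named gene changed sign while past the threshold under any alternative run. Unknown depth and 3 fish a side limit all values.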

Other observations

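The following genes were chosen after their values were seen, and are given with no test. In Waxing moon May fish 2, 48 tested genes lay at least 4 times below the lowest of the other 5 May fish, on FPKM + 1, and 6 lay at least 4 times above the highest. In each of the other 5 fish, 0 to 4 genes lay that far below and 0 to 5 that far above. Beside the hormone genes, gpx3, an extracellular glutathione peroxidase, had 8.48 FPKM in Waxing moon May fish 2 and 390 to 666 FPKM in the other 5 fish. Tbx20, a T-box transcription factor, had 0.31 FPKM in that fish and 26.6 to 50.1 FPKM in the others. The adrenaline-making enzyme gene pnmt had 0.04 FPKM there and 8.13 to 24.1 FPKM in the others. In the opposite direction, a complement C1q tumor necrosis factor-related protein 3-like gene (LOC101068573) had 83.8 FPKM in fish 2 and 0.09 to 0.36 FPKM in the others.

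Genes of melatonin synthesis followed rhodopsin. Asmt, the last enzyme of melatonin synthesis, had 0.07, 0.18 and 11.1 FPKM in Waxing moon May and 9.38, 0.06 and 0.12 FPKM in New moon May. Tph1, which makes the serotonin precursor, had 4.46, 5.39 and 47.1 FPKM in Waxing moon May and 41.4, 3.86 and 4.58 FPKM in New moon May. Waxing moon May fish 3 and New moon May fish 1 were high for both.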
